A study of Mus musculus with 43 samples.

Results

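Expression of 10 genes of epithelial adhesion and cell junctions was described in the mouse pancreatic tumor line PD798. The genes are Cdh1, Epcam, Cldn3, Cldn4, Cldn7, Ocln, Pkp1, Pkp3, Dsp and Jup, chosen by name from the junctional complexes of epithelia, and all 10 were among the 13845 genes of a processing experiment and the 13817 genes of an input series. PD798 was derived from the pancreatic tumor of a mouse of the KPCY model, which carries Pdx1-Cre, p53 L/+ and Rosa YFP/YFP among its alleles. Pdx1-Cre acts in the pancreatic lineage, so that tumor cells express YFP. The study asked how a magnetic pre-enrichment step ahead of flow sorting affects cells, and how far small inputs resemble bulk material.

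In the processing experiment bulk RNA was sequenced in 12 libraries, 3 per condition. Pre-FACS cells were banked before sorting. Mock cells stood in staining buffer at room temperature. FACS-only cells were given magnetic particles and red cell lysis buffer and were sorted on a BD Influx. Pre-enriched cells had the same treatment and passed the pre-enrichment device before the sorter. The 31 libraries of the input series come from 11 single cells, 12 sorted pools of 10 cells, 6 sorted pools of 100 cells and, in duplicate, RNA extracted from the line in bulk (2 libraries, called bulk RNA here). The labels state for every sample that cells were spiked into blood of healthy mice. The study's account of the 4 processing conditions does not mention blood. All libraries come from 1 line, and neither the labels nor the methods name separate cultures, so that p-values measure the spread between these libraries, which may be technical. Values are TPM, an abundance of transcripts scaled to their length and to a fixed total per library, so that genes of a library can be compared, but read depth is not kept.

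Epithelial cells hold together through a set of junctions along their lateral membranes. At adherens junctions E-cadherin (Cdh1) binds its like on the next cell, and at tight junctions claudins and occludin (Ocln) seal the space between cells. At desmosomes plakophilins (Pkp1, Pkp3), plakoglobin (Jup) and desmoplakin (Dsp) link desmosomal cadherins to keratin filaments. Epcam is an adhesion protein that binds Cldn7, and it serves with Cdh1 as a common surface marker of carcinoma cells in blood. In pancreatic ductal tumors these genes are used to tell epithelial from mesenchymal tumor cells.

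The members lie on 7 chromosomes of the mm10 assembly. In the GENCODE annotation Cdh1 spans chr8:106603351-106670246, Epcam spans chr17:87635979-87651129 and Cldn7 spans chr11:69964779-69967885. Cldn4 (chr5:134945119-134946934) and Cldn3 (chr5:134986214-134987472) are neighbors on chromosome 5, 39.3 kb apart and on opposite strands. Their longest annotated transcripts differ in length from 1259 nt for Cldn3 to 9592 nt for Dsp. The claudins and Epcam are short (1259 to 2040 nt), whereas Cdh1 has 4430 nt, Pkp1 4669 nt and Jup 3205 nt.

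Before the members are compared, some libraries of the input series must be named. Single cells 6 and 9, pools 5 and 12 of 10 cells and pools 1 to 3 of 100 cells had nearly the same profile, with Pearson's r across genes of 0.967 to 0.996 in their 21 pairs. The other 9 single cells correlated with each other at 0.537 to 0.730. Cells 6 and 9 held 11438 and 11223 genes at 1 TPM or more, against 3919 to 8598 in the other single cells, and so go against their labels as single cells. Pools 4 to 6 of 100 cells were alike (r of 0.974 to 0.980) and stood apart in keratins. Krt8, Krt18, Krt19 and Krt7 summed to 7033 to 10496 TPM in these 3 pools, compared with 28385 to 30109 in pools 1 to 3, 16112 to 30333 in the pools of 10 and 25881 to 26400 in bulk RNA. Counts of calls, levels and correlations of members that rest on the libraries of near-identical profile are given with and without them.

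The first question was whether the processing of cells altered these transcripts. In the 12 libraries of the processing experiment none of the 9 members tested differed among the 4 conditions, and the levels of Cdh1 and Epcam, whose proteins were the surface markers of the study, lay close together. Cdh1 was the most abundant member by a wide margin. It was measured at 979, 990 and 1029 TPM in Pre-FACS cells, at 980, 1022 and 1006 TPM in Mock cells, at 1006, 1051 and 1057 TPM in FACS-only cells and at 976, 1024 and 985 TPM in Pre-enriched cells. The libraries of all 4 conditions overlapped, and the highest value was in a FACS-only library. The means were 999 ± 26.3 TPM in Pre-FACS, 1003 ± 21.2 TPM in Mock, 1038 ± 27.9 TPM in FACS-only and 995 ± 25.6 TPM in Pre-enriched cells (SD, n = 3 each).

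Epcam was measured at 38.9, 36.2 and 35.5 TPM in Pre-FACS cells and at 37.5, 35.6 and 32.1 TPM in Mock cells. It was 33.3, 33.7 and 34.6 TPM in FACS-only cells and 34.8, 33.1 and 35.2 TPM in Pre-enriched cells. Both sorted conditions lay below all 3 Pre-FACS libraries, and both overlapped Mock. The tight junction members were low. Cldn3 ranged from 13.0 to 18.3 TPM over the 12 libraries, Cldn4 from 3.40 to 8.73 TPM, Cldn7 from 2.78 to 7.66 TPM and Ocln from 14.9 to 25.1 TPM. Ocln in Pre-enriched cells (19.8, 14.9 and 19.5 TPM) lay below all Pre-FACS libraries (24.3, 22.7 and 23.5 TPM) and below all FACS-only libraries (21.1, 22.4 and 23.5 TPM), but overlapped Mock (17.3, 25.1 and 22.6 TPM).

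Of the desmosomal members, Jup was the most abundant at 226 to 278 TPM. Its Pre-enriched libraries (226, 240 and 241 TPM) lay below those of Mock (252, 255 and 271 TPM) and of FACS-only cells (245, 259 and 273 TPM). Dsp ranged from 15.0 to 22.7 TPM and Pkp3 from 6.44 to 11.3 TPM, with all 4 conditions overlapping for Pkp3. Pkp1 stayed under 1 TPM in all 12 libraries and therefore entered no test. It was listed at 0.989, 0.900 and 0.852 TPM in FACS-only cells and at 0.120, 0 and 0.205 TPM in Mock cells, with Pre-FACS (0.385 to 0.744 TPM) and Pre-enriched cells (0.263 to 0.457 TPM) between. When all 13845 genes were tested without a filter, the adjusted p of Pkp1 among the 4 conditions was 0.302.

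**Figure D1:**
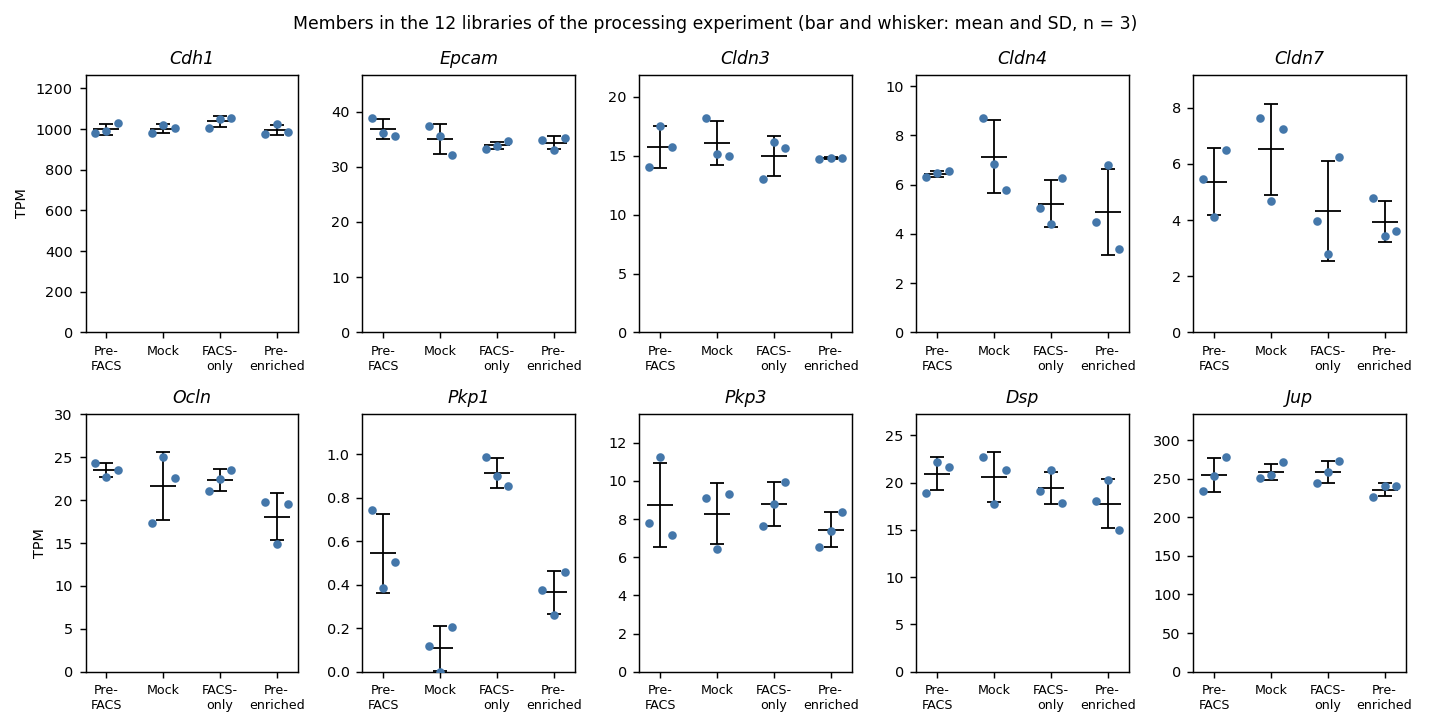
TPM of each member (1 panel each, y axis from 0) in the 4 processing conditions on the x axis, with 3 libraries per condition as points and the mean and SD as bar and whisker. Cdh1 stays between 976 and 1057 TPM and Jup between 226 and 278 TPM, and Pkp1 stays under 1 TPM.

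In limma's F test on log2(TPM + 1), 0 of the 9 members passed an adjusted p of 0.05 and 0 had an unadjusted p under 0.05. The lowest adjusted p was 0.686, for Ocln. Of all 12159 genes tested, 13 (0.107%) passed, a count that ran from 1 to 17 when each of the 12 libraries was left out in turn. By pair of conditions the count of members was also 0 of 9 in each of the 6 pairs. Of all genes 0.123% passed between FACS-only and Pre-FACS cells, 0.0493% between Pre-enriched and Pre-FACS cells, 0.00822% between Pre-FACS and Mock cells and 0% in the other pairs. With each library left out in turn, the 15 genes between FACS-only and Pre-FACS cells became 5 to 24 and the 6 genes between Pre-enriched and Pre-FACS cells 1 to 7. In the 54 comparisons of a member between a pair, 5 had an unadjusted limma p under 0.05, and the lowest adjusted p was 0.416. Of all 12159 genes 551 to 1116 had such an unadjusted p in a pair. The 5 were all lower values. Cldn7 was lower in FACS-only and in Pre-enriched cells than in Mock, and Cldn4 in Pre-enriched cells than in Mock. Ocln was lower in Pre-enriched cells than in Pre-FACS and FACS-only cells. The 95% intervals show what size of difference these libraries leave possible. For Cdh1 every interval of the 6 pairs lay within 0.153 of 0 on the log2 scale, and for Epcam within 0.294. For Jup the widest bound was 0.273 and for Cldn3 0.375, whereas for Cldn4 and Cldn7 it was 0.923 and 1.1. Counting members whose libraries did not overlap between Pre-enriched and Pre-FACS cells gave 2 of 9 (Epcam and Ocln, both lower in Pre-enriched cells), beside 14.2% of all genes. Between FACS-only and Pre-FACS cells it gave 2 of 9 (Epcam and Cldn4, both lower in FACS-only cells), beside 11.6%. Between Pre-enriched and Mock cells it gave 2 of 9 (Cldn3 and Jup), beside 15.4%, and between Pre-enriched and FACS-only cells 2 of 9 (Ocln and Jup), beside 12.3%. Between Mock and Pre-FACS cells it gave 0 of 9, beside 9.33%, and between FACS-only and Mock cells 0 of 9, beside 10.5%. The members' median log2 difference was -0.193 for Pre-enriched minus Pre-FACS cells, beside -0.0144 for all genes. It was -0.136 for Pre-enriched minus Mock cells, beside -0.0109, and every member tested was below 0 in both. For Pre-enriched minus FACS-only cells it was -0.108, beside -0.0121, with Epcam above 0. These pairs share the Pre-enriched libraries, and the members were not tested as a set.

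Other genes of these junctions gave the same count. Among the 4 conditions 0 of 9 other adherens junction genes, 0 of 17 other tight junction genes, 0 of 7 other desmosome genes and 0 of 6 gap junction genes passed. None of 7 regulators and partners tested passed either. Unadjusted p-values of the F test under 0.05 numbered 2, 5, 0, 1 and 2 in these lists, beside 919 of all 12159 genes. Of 19 listed blood cell markers 6 were analysed, and they summed to 3.76 to 10.3 TPM over the 12 libraries.

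The bulk RNA of the input series bears the same line name and holds the same members in other proportions. The tables of the processing experiment and the input series were normalized separately, so that these values are set side by side with no test, and fewer cells of a type and less RNA per cell cannot be told apart in bulk RNA. Cdh1, Jup and Dsp lay near the same level in both. Cdh1 was 939 and 929 TPM in the 2 bulk RNA libraries, compared with 976 to 1057 TPM in the processing experiment. Jup was 192 TPM in both bulk RNA libraries against 226 to 278 TPM, and Dsp 22.9 and 23.0 TPM against 15.0 to 22.7 TPM. The other 7 members were much higher in the bulk RNA of the input series.

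Epcam was 811 and 842 TPM in bulk RNA, against 32.1 to 38.9 TPM in the 12 processing libraries. Cldn7, its binding partner, was 586 and 570 TPM, against 2.78 to 7.66 TPM. Cldn3 was 361 and 388 TPM, against 13.0 to 18.3 TPM. Cldn4 was 138 and 141 TPM, against 3.40 to 8.73 TPM. All 4 of these short transcripts were thus far apart between the experiments, with no overlap. Ocln was 102 TPM in both bulk RNA libraries, against 14.9 to 25.1 TPM. Pkp1, a plakophilin of stratified epithelia, was 103 and 102 TPM, against 0 to 0.989 TPM, and Pkp3 was 74.7 and 74.5 TPM, against 6.44 to 11.3 TPM. A gene was counted as apart when all 12 processing libraries were more than 4-fold below or above both bulk RNA libraries, among 10574 shared genes with a mean of at least 5 TPM in either set. By this count 7 of 10 members were lower in the processing experiment and 0 were higher, where 3.05% of all genes compared were lower and 3.52% higher.

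Ratios within a library do not depend on its scaling. Epcam over Cdh1 was 0.864 and 0.907 in bulk RNA and 0.0319 to 0.0397 in the processing libraries. Cldn7 over Cdh1 was 0.614 to 0.625 in bulk RNA, against 0.00264 to 0.00781. In contrast Jup over Cdh1 was 0.204 and 0.207 in bulk RNA and 0.231 to 0.270 in the processing libraries. The ratio of the neighbors Cldn4 and Cldn3 was 0.364 to 0.381 in bulk RNA, within the 0.229 to 0.479 of the processing libraries. This closeness did not hold in sorted cells. There the ratio was 0.593 to 1.571 in pools of 10, 1.219 to 2.375 in pools of 100 and 0 to 4.646 in the 10 single cells with Cldn3 above 0. These ranges include the libraries of near-identical profile. In pools 1 to 3 of 100 Cldn4 was 936 to 1003 TPM and Cldn3 415 to 472 TPM. In pools 4 to 6 Cldn4 was 124 to 221 TPM and Cldn3 90.5 to 141 TPM.

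**Figure D2:**
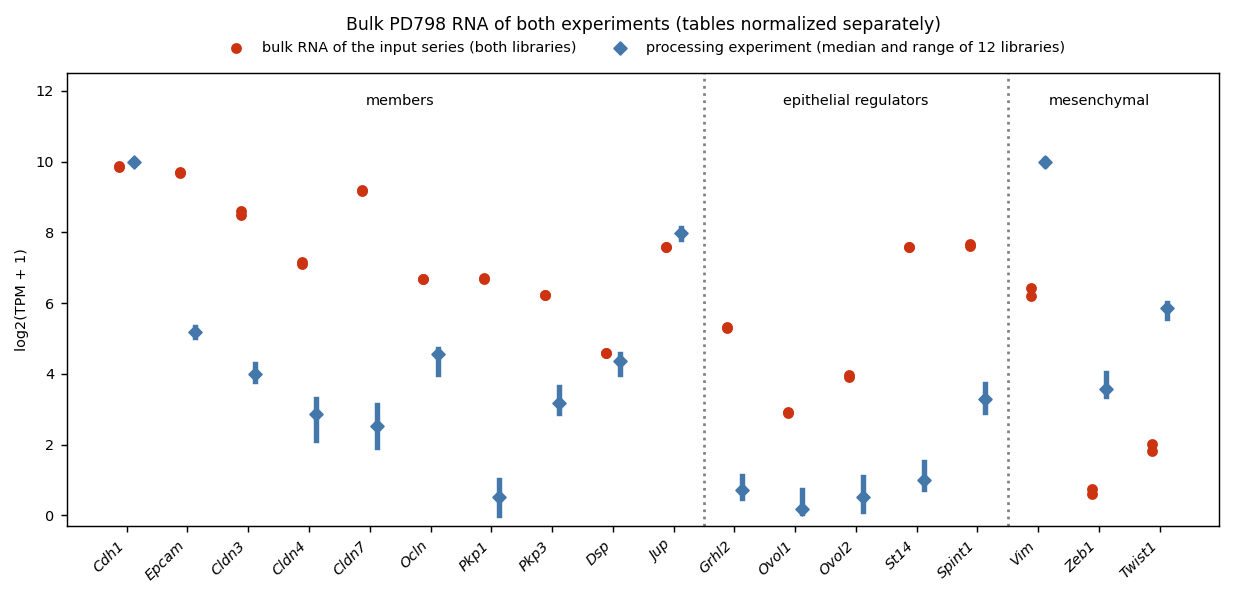
Level in log2(TPM + 1) on the y axis of the 10 members, 5 epithelial regulators and 3 mesenchymal markers on the x axis, with circles for the 2 bulk RNA libraries of the input series and diamonds with lines for the median and range of the 12 processing libraries. Epcam (811 and 842 against 32.1 to 38.9 TPM) and 6 other members lie apart, whereas Cdh1, Dsp and Jup lie close together. The regulators and mesenchymal markers shown are only those counted as apart, picked after their values were seen. The rest of their lists is left out, such as Elf3 (58.4 and 60.8 against 240 to 276 TPM).

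Of the other lists, 5 of 10 epithelial regulators and Epcam partners were lower in the processing libraries by the same count. They are the transcription factors Grhl2, Ovol1 and Ovol2, the membrane protease St14 and its inhibitor Spint1. Grhl2 was 38.6 and 39.0 TPM in bulk RNA and 0.414 to 1.17 TPM in the processing libraries, and St14 was 192 and 190 TPM against 0.686 to 1.82 TPM. Elf3, an epithelial factor, did not follow, with 58.4 and 60.8 TPM against 240 to 276 TPM. Of 6 mesenchymal markers compared 3 were higher in the processing libraries and 0 were lower. Vim, the intermediate filament of mesenchymal cells, was 73.0 and 85.4 TPM in bulk RNA and 960 to 1085 TPM in the processing libraries. Zeb1, a repressor of epithelial genes, was 0.667 and 0.519 TPM against 9.46 to 15.3 TPM, and Twist1 was 3.05 and 2.52 TPM against 47.0 to 62.5 TPM. Keratins were high in both, with Krt8 at 6592 and 6765 TPM in bulk RNA and 6465 to 8262 TPM in the processing libraries. Among the other junction genes, 1 of 8 adherens junction genes was lower (Cdh3) and 1 higher (Nectin3, listed as Pvrl3), 0 of 17 tight junction genes was lower and 1 was higher (Cldn2), 1 of 7 desmosome genes was lower (Ppl) and 2 of 6 gap junction genes were lower (Gja1 and Gjb2). These genes were singled out after their values had been seen.

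The start regions of Epcam and the 3 claudins are shown because the transcripts of these genes were all lower in the processing libraries than in the separately normalized bulk RNA. The sequences are 300 bases, from 250 before to 50 after a RefSeq gene start of assembly GRCm38.p6, 5′ to 3′ on the gene's strand. Capitals mark the letters CAGGTG or, on the other strand, CACCTG, the E-box that repressors of the ZEB and SNAIL families are known to bind.
Epcam, chr17:87635729-87636028, plus strand: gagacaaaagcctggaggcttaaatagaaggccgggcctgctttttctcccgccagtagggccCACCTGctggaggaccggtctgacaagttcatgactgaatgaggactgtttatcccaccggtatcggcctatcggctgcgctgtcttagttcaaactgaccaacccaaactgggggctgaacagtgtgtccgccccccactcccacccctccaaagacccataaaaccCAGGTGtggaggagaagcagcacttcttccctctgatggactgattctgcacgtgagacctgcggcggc
Cldn7, second listed start, chr11:69965171-69965470, plus strand: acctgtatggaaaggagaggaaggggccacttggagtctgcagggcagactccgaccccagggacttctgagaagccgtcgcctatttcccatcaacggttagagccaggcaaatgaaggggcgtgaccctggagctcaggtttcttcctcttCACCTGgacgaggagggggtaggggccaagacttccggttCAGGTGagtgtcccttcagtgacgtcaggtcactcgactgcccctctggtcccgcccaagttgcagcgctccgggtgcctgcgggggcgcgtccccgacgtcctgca
Cldn4, chr5:134946885-134947184, minus strand: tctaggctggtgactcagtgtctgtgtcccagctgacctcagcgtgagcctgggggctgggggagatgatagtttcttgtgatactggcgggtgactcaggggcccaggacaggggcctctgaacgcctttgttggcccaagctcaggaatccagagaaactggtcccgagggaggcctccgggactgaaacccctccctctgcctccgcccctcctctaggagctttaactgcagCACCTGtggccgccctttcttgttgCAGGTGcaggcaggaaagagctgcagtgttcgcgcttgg
Cldn3, chr5:134985964-134986263, plus strand: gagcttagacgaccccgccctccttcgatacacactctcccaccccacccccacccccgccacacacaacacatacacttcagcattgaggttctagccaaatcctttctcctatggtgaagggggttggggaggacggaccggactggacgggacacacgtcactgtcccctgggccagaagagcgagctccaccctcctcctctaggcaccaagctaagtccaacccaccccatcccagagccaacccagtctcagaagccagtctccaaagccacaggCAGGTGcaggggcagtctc
The Epcam, Cldn7 and Cldn4 windows hold these letters at 2 places each and the Cldn3 window at 1. In the Epcam window 1 of them begins 19 bases before the start, and in Cldn4 they lie 14 bases before and 11 bases after it.

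Promoter windows were found for 7 of the 10 members, in 9 windows, and none for Cdh1, Pkp1 and Pkp3. The letters occurred in 6 of these 7 members, also in Dsp and Ocln, and not in Jup. The first listed start of Cldn7 did not hold them. Dsp, with the letters, and Jup, without them, both lay near the same level in the 2 experiments. Of all 32851 RefSeq promoter windows of the same length 20.2% hold CAGGTG on either strand. That share is per window, whereas a member was counted if any of its windows held the letters, and the Ocln windows overlap. The motif AACCNGTT, known for grainyhead factors such as Grhl2, occurred on neither strand in any of the 9 windows, and in 2.09% of all windows. Binding of a factor was not measured, and the part of these letters in the levels was not tested.

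In the input series the members were then followed from single cells to bulk RNA. In bulk RNA the order from high to low was Cdh1, Epcam, Cldn7, Cldn3, Jup, Cldn4, Pkp1, Ocln, Pkp3 and Dsp, with Pkp1 (103 and 102 TPM) and Ocln (102 TPM in both) not apart beyond their spread. In the pools of 10 cells Epcam and Cldn7 led by their medians, and Cdh1 came below the claudins. Over the 12 pools of 10 cells Epcam had a lowest, median and highest value of 543, 911 and 1311 TPM. Cldn7 had 415, 676 and 914 TPM, Cldn3 190, 319 and 483 TPM, and Cldn4 179, 319 and 696 TPM. These 4 ranges overlap in part, and the medians of Cldn3 and Cldn4 do not differ beyond their spread. Cdh1 had 45.4, 109 and 223 TPM. All 12 pools of 10 cells were below both bulk RNA libraries in Cdh1.

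Of the remaining members, Ocln had a lowest, median and highest value of 22.0, 54.5 and 97.5 TPM in the pools of 10. Jup had 18.9, 34.6 and 81.3 TPM, and Pkp3 2.84, 17.9 and 44.1 TPM. Pkp1 had 4.08, 18.3 and 27.3 TPM, and Dsp 8.32, 13.1 and 27.9 TPM. Pools 5 and 12 were the 2 highest in Cdh1 (223 and 222 TPM) and in Pkp3 (44.0 and 44.1 TPM). In Jup they had 81.3 and 68.2 TPM, with pool 2 (68.4 TPM) between them. Without pools 5 and 12 the medians over the other 10 pools were 106 TPM for Cdh1, 989 TPM for Epcam, 643 TPM for Cldn7, 309 TPM for Cldn3 and 286 TPM for Cldn4. They were 49.3 TPM for Ocln, 27.1 TPM for Jup, 16.0 TPM for Pkp1, 15.7 TPM for Pkp3 and 11.8 TPM for Dsp.

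**Figure D3:**
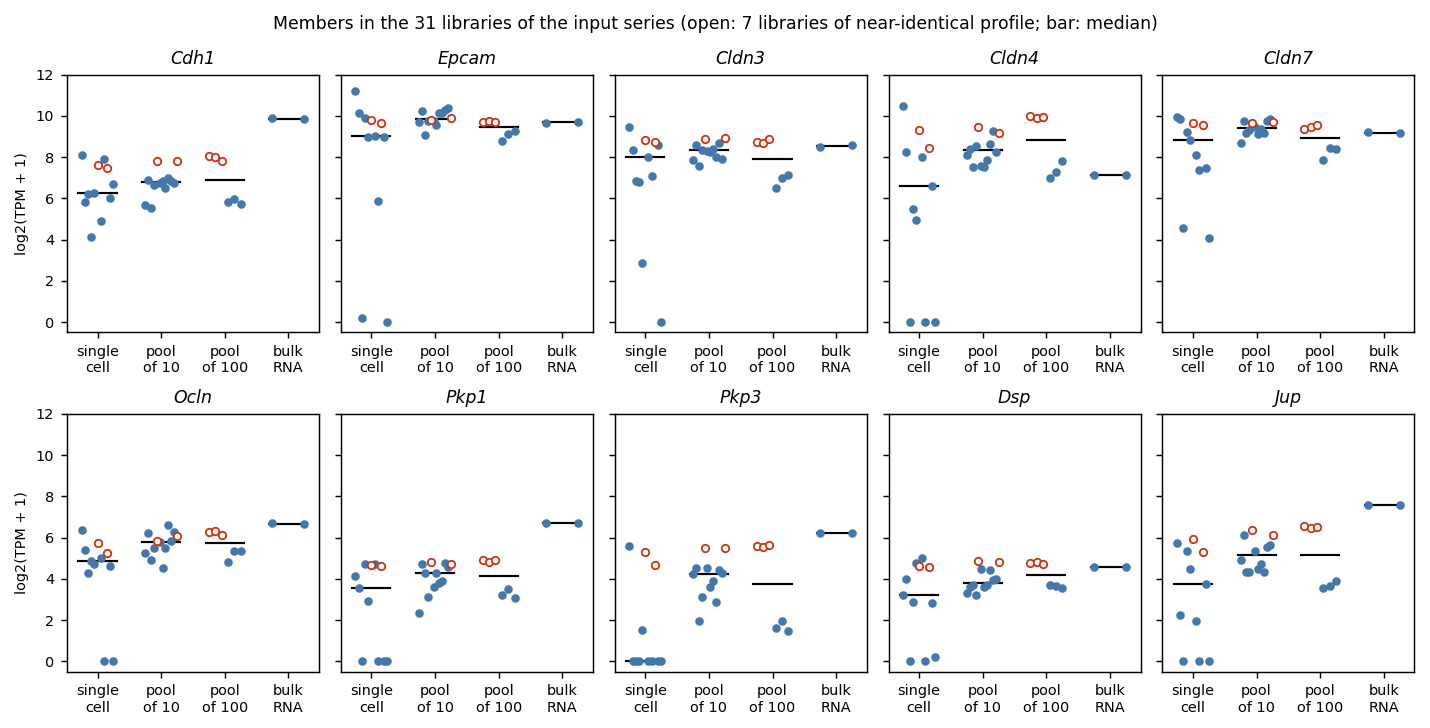
Level in log2(TPM + 1) on the y axis of each member (1 panel each) in 11 single cells, 12 pools of 10, 6 pools of 100 and 2 bulk RNA libraries on the x axis. Points are libraries, bars are medians, and open points are the 7 libraries of near-identical profile. In each panel pools 1 to 3 of 100 (open) lie above the other pools of 100, as for Jup at 86.1 to 93.4 against 10.6 to 13.7 TPM. The share of all genes with this split was not counted.

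The 6 pools of 100 cells fell into 2 sets in every member. Pools 1 to 3 were higher than pools 4 to 6 in all 10 members, without overlap. The share of all genes that split in this way was not counted, so the split cannot be called particular to the members. Pools 1 to 3 also held more genes at 1 TPM or more (11488 to 11549) than pools 4 to 6 (10255 to 10400). Cdh1 was 263, 251 and 221 TPM in pools 1 to 3 and 56.0, 62.4 and 51.9 TPM in pools 4 to 6. Epcam was 821, 845 and 826 TPM against 440, 563 and 607 TPM. Cldn4 was 1003, 936 and 982 TPM against 124, 153 and 221 TPM. The gap was widest in the desmosomal members Pkp3 and Jup. Pkp3 was 47.1, 45.8 and 48.8 TPM against 2.11, 2.93 and 1.80 TPM, and Jup was 93.4, 86.1 and 90.7 TPM against 10.6, 11.8 and 13.7 TPM. Dsp, by contrast, was 26.5, 27.5 and 25.1 TPM against 12.1, 11.7 and 10.8 TPM. The keratin sums given above moved with this split. Blood cell markers, of which 7 of 19 listed were analysed, summed to 44.1 to 69.0 TPM in pools 1 to 3 and to 46.7 to 156 TPM in pools 4 to 6. In bulk RNA they summed to 48.6 and 65.2 TPM, with Cd79a at 0 in both libraries. The part of either in the split was not tested.

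Against bulk RNA, 3 of the 10 members were lower in pools, and they were the same 3 for both pool sizes. Cdh1, Pkp1 and Jup fell, and no member rose past the threshold. In pools of 10 cells Cdh1 was lower than in bulk RNA by a log2 difference of -3.12 ± 0.57 (SE, limma adjusted p = 0.000497), Pkp1 by -2.62 ± 0.58 (adjusted p = 0.00169) and Jup by -2.41 ± 0.72 (adjusted p = 0.0126). In pools of 100 cells the differences were -2.98 ± 0.61 for Cdh1 (adjusted p = 0.00206), -2.63 ± 0.62 for Pkp1 (adjusted p = 0.00439) and -2.49 ± 0.77 for Jup (adjusted p = 0.0200). Both comparisons share the 2 bulk RNA libraries. Of all 12323 genes tested 39.4% passed for pools of 10 (31.9% lower and 7.46% higher) and 32.2% for pools of 100 (24.9% lower and 7.3% higher), so that a share of 3 in 10 members lies near that of all genes. The median difference of the members was -0.80 for pools of 10 and -0.84 for pools of 100, beside -0.86 and -0.79 for all genes. Groups that did not overlap numbered 6 of 10 members for pools of 10 and 5 of 10 for pools of 100, beside 49.4% and 66.4% of all genes.

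The other 7 members did not pass. Epcam differed by 0.19 in pools of 10 (95% interval -0.35 to 0.74) and by -0.31 in pools of 100 (-0.90 to 0.27). Cldn7 differed by 0.23 (-0.46 to 0.93) and -0.33 (-1.08 to 0.41), and Cldn3 by -0.24 (-1.20 to 0.72) and -0.73 (-1.75 to 0.30). Cldn4 had the only large positive difference, 1.22 in pools of 10 (-0.14 to 2.58, adjusted p = 0.140) and 1.5 in pools of 100 (0.05 to 2.96, adjusted p = 0.10). Ocln and Pkp3 had negative differences in both pool sizes that missed the threshold, with adjusted p-values of 0.0692 and 0.0798 in pools of 10 and 0.104 and 0.0636 in pools of 100. Dsp, the longest transcript, differed by -0.61 (-1.54 to 0.32) and -0.37 (-1.37 to 0.62).

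**Figure D4:**
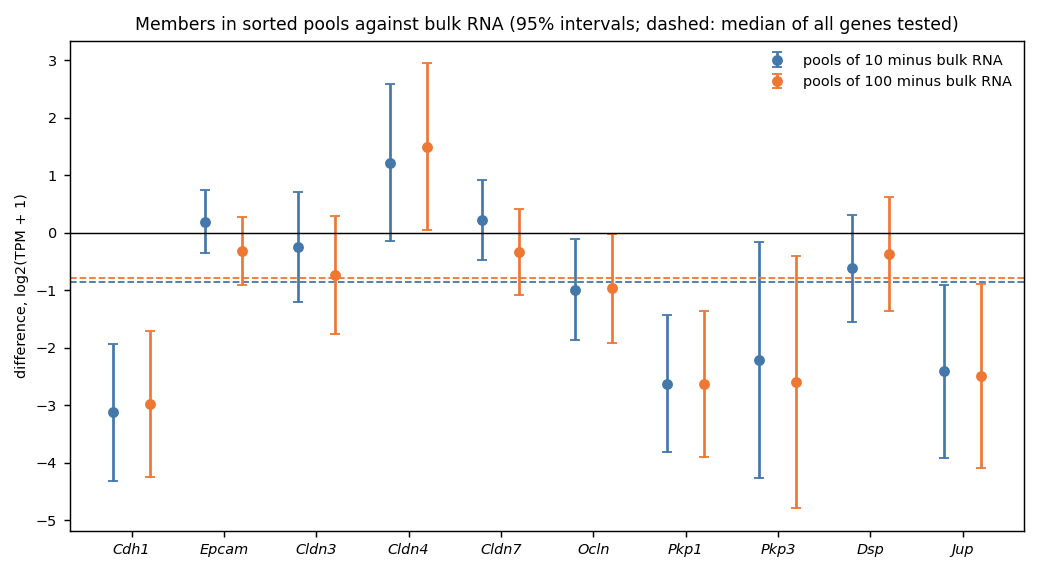
Difference from bulk RNA in log2(TPM + 1) on the y axis for each member on the x axis, in 12 pools of 10 and 6 pools of 100 cells against the same 2 bulk RNA libraries, with 95% intervals as whiskers and the median of all 12323 genes as dashed lines. Cdh1, Pkp1 and Jup lie lowest of the members past the threshold, Pkp3 is as low with a wide interval, and Cldn4 lies above 0.

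These calls rest on few bulk libraries. With either bulk RNA library left out, Jup missed the threshold in pools of 10 (adjusted p = 0.112 without the first and 0.109 without the second), and 0 members without the first and 1 without the second passed for pools of 100. The share of all genes fell as well, to 10.9% and 12.4% for pools of 10 and to 3.25% and 4.35% for pools of 100, so that the members' counts and the background shares both rest on these 2 libraries. Without the 5 pools of near-identical profile, 6 members passed for pools of 10 and 7 for pools of 100, beside 49.9% and 55.8% of all genes, with Cldn4 higher in pools of 10 and the others lower. Transcript length moved with the difference over all genes. The median difference in pools of 10 was 0.25 in the quartile of shortest transcripts, up to 1861 nt, then -0.65, -1.34 and -1.76 in the quartiles of longer ones, and the claudins and Epcam fall in the 2 shorter quartiles whereas Cdh1, Jup and Ocln fall in the third and Pkp1 and Dsp in the longest. Pkp3 (2919 nt) falls in the second quartile, whose median was -0.65, and differed by -2.21 in pools of 10. After a trend with length and GC content had been removed from each library, the differences in pools of 10 were -2.40 for Cdh1, -1.60 for Pkp1 and -1.42 for Jup, all 3 still past the threshold. Of all genes 30.4% also passed there, with a median difference of -0.89, so that this setting left the general shift in place. In pools of 100 it was 15.4% of all genes. Dsp, the longest member, differed by less than the median of its quartile (-0.61 against -1.76). The part of length in the differences of the members was not tested further.

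Pools of 100 and of 10 cells did not differ in any member at the threshold (0 of 10, with Epcam and Cldn7 at an unadjusted p under 0.05), beside 1 of 12323 genes (0.00811%). Every member overlapped between the 2 pool sizes, where 0.0487% of all genes did not. This count depended on which pools were included. Without pools 5 and 12 of 10 and pools 1 to 3 of 100, 5 members were lower in pools of 100 than in pools of 10, namely Epcam (-0.84, adjusted p = 0.0142), Cldn3 (-1.31, adjusted p = 0.000803), Cldn7 (-1.12, adjusted p = 0.00190), Pkp3 (-2.04, adjusted p = 0.00878) and Jup (-1.28, adjusted p = 0.0216), beside 14.7% of all genes. These pools were left out after the data had been seen.

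Other genes of the same complexes were also lower in pools than in bulk RNA, and none was higher at the threshold. Of 10 other adherens junction genes 7 fell in pools of 10 and 5 in pools of 100, and the counts of this and the lists that follow stand beside 31.9% and 24.9% of all genes that were lower. Vcl, which couples cadherin complexes to actin, fell, with log2 differences of -2.41 in pools of 10 and -2.01 in pools of 100 (adjusted p = 3.12e-05 and 0.000524), and Ctnnd1, the p120 catenin that binds Cdh1, fell with -2.16 and -1.85 (adjusted p = 0.000294 and 0.00252). Of 18 other tight junction genes 13 and 10 fell. The scaffold Tjp1 fell with -3.20 and -3.10 (adjusted p = 9.09e-07 and 8.39e-06), from 177 and 191 TPM in bulk RNA to 12.1 to 23.8 TPM in pools of 10, and the adhesion receptor Cxadr fell with -1.63 and -1.37 (adjusted p = 3.28e-05 and 0.000550). The medians of these 2 lists were -1.73 and -1.99 in pools of 10, beside -0.86 for all genes.

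Of 8 other desmosome genes 5 fell in each pool size. The plakins Ppl and Evpl, which bind keratin filaments at desmosomes, fell with -3.21 and -3.65 in pools of 10 (adjusted p = 0.000208 and 0.000391) and with -3.09 and -3.81 in pools of 100 (adjusted p = 0.000934 for both). Of 6 gap junction genes 1 fell, the connexin Gja1, with -1.37 and -1.42 (adjusted p = 0.00264 and 0.00524). Of 12 epithelial regulators and Epcam partners 5 fell in each pool size, and the share of the gap junction genes lies below that of all genes. The splicing factors Esrp1 and Esrp2 fell with -1.47 and -3.75 in pools of 10 (adjusted p = 0.00163 and 0.00279), and Esrp2 and Grhl2 fell with -3.38 and -2.04 in pools of 100 (adjusted p = 0.0122 and 0.0145). Without the 5 pools of near-identical profile the counts were 8, 15, 5, 2 and 8 in pools of 10 and 8, 16, 5, 2 and 10 in pools of 100, for the 5 lists in the order given. Of all 12323 genes 5047 were then lower in pools of 10 and 5600 in pools of 100. Of 6 mesenchymal markers tested 2 fell in each pool size, Fn1 and Cdh2.

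Single cells were described with no test. Of the 110 values of 10 members in 11 cells, 85 (77.3%) were at 1 TPM or more, whereas all 120 values in pools of 10 and all 60 in pools of 100 were. Without cells 6 and 9 it was 65 of 90 (72.2%). Cdh1 and Cldn7 reached 1 TPM in 11 of 11 cells, Cldn3 in 10, Epcam and Ocln in 9, Cldn4, Dsp and Jup in 8, Pkp1 in 7 and Pkp3 in 4. The level of Cdh1 was lowest at 16.7 TPM, with a median of 75.5 TPM and a highest value of 276 TPM. Epcam ran from 0 to 2349 TPM with a median of 515 TPM, and Cldn7 ran from 16.0 to 984 TPM with a median of 446 TPM. Without cells 6 and 9 the medians were 72.1 TPM for Cdh1, 506 TPM for Epcam and 275 TPM for Cldn7. In these 9 cells Cdh1 and Cldn7 reached 1 TPM in 9, Cldn3 in 8, Epcam and Ocln in 7, Cldn4, Dsp and Jup in 6, Pkp1 in 5 and Pkp3 in 2. Because TPM has no depth, a value of 0 says only that a gene is listed at 0.

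Cells 3, 8 and 11 held the fewest members, at 4, 4 and 2 of 10. All 3 had Cdh1, at 72.1, 241 and 102 TPM, within the range of the other cells. Epcam was 0.138, 57.3 and 0 TPM in them, against 503 to 2349 TPM in the other 8 cells, so that Epcam did not overlap between these cells and the rest. Cldn7 was 22.3, 166 and 16.0 TPM against 178 to 984 TPM, again without overlap. Cldn4, Pkp1, Pkp3 and Jup were listed at 0 in all 3. The keratins were above 0 in all 3 cells but low in part. Krt18 was 3245, 9541 and 1721 TPM, and Krt7 was 337, 600 and 395 TPM, the lowest values of the 11 cells. The 4 keratins summed to 5743, 12710 and 3345 TPM, of which the sums of cells 3 and 11 were the lowest, with 9381 to 28297 TPM in the other 8 cells. The 8 mesenchymal markers summed to 508, 546 and 136 TPM in cells 3, 8 and 11 and to 0 to 153 TPM in the other 8 cells, and cell 11 had the highest sum of blood cell markers (322 TPM). The 3 cells held 5631, 3919 and 4106 genes at 1 TPM or more. These cells were singled out by their members, so that the values are a description, and the part of markers or of gene number in them was not tested.

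**Figure D5:**
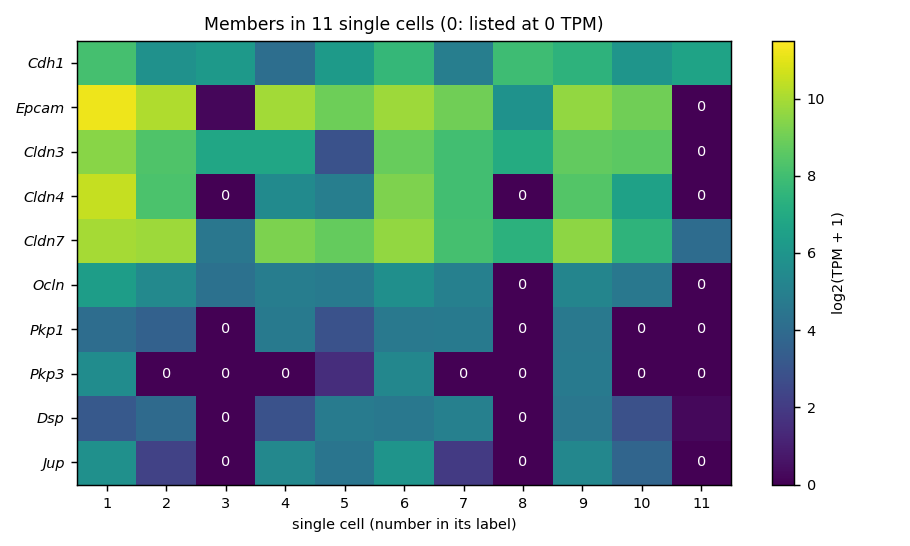
Color gives the level in log2(TPM + 1) of each member (rows) in 11 single cells (columns), with 0 written where a gene is listed at 0 TPM. Cdh1 and Cldn7 are above 1 TPM in 11 of 11 cells, Pkp3 is at 1 TPM or more in 4, and cells 3, 8 and 11 hold 4, 4 and 2 members.

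Cell 1 was at the other end, with all 10 members present and a sum of 5966 TPM over them, compared with 118 to 3163 TPM in the other single cells and 3329 and 3364 TPM in bulk RNA. It had the highest values of Epcam (2349 TPM), Cldn4 (1444 TPM), Cldn3 (705 TPM), Ocln (82.4 TPM) and Cdh1 (276 TPM). Cells 6 and 9 held all 10 members, and so did cell 5. Epcam over Cdh1 had a median of 6.66 in single cells, 9.53 in pools of 10 and 5.79 in pools of 100, above the 0.864 and 0.907 of bulk RNA. It ranged from 0 to 57.4 in single cells, from 3.95 to 16.7 in pools of 10 and from 3.13 to 11.7 in pools of 100. Without the libraries of near-identical profile the medians were 8.02 in 9 single cells, 10.6 in 10 pools of 10 and 9.03 in 3 pools of 100. Epcam has the shorter transcript (2040 nt, against 4430 nt for Cdh1). In pools of 10 the median difference from bulk RNA over all genes was -0.65 in the length quartile of Epcam and -1.34 in that of Cdh1. The part of length in this ratio was not tested.

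Across the 18 pools the members varied together to different degrees. Spearman's rho of TPM over these pools is given as a description, since pools share a line, a preparation and the 5 pools of near-identical profile. It was highest between the desmosomal members Pkp3 and Jup (0.969) and lowest between Epcam and Dsp (0.218). Cldn3 and the neighboring Cldn4 had a rho of 0.845. In the 13 pools without those 5 it was 0.940 for Pkp3 and Jup, 0.313 for Epcam and Dsp and 0.709 for Cldn3 and Cldn4. Pkp3 and Jup stayed the highest pair there, but the lowest was Cldn4 and Dsp (0.033). Cdh1 and Epcam had a rho of 0.371 in the 18 pools and 0.670 in the 13. The genes other than members with the pattern most like Cdh1, of 12313 genes, were Slc38a10 (0.965), Nedd4 (0.959) and Ubap2 (0.953). Most like Epcam were Hmga2-ps1 (0.897), Nasp (0.889) and Ap1m2 (0.884), of which Hmga2-ps1 is named as a pseudogene, whose reads may be shared with its parent gene. In the 13 pools the values were 0.945, 0.962 and 0.879 for the 3 genes of Cdh1 and 0.912, 0.852 and 0.874 for those of Epcam.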

How the data were processed

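PD798 was profiled by whole transcriptome sequencing after SMART-Seq v4 amplification, in 12 libraries of the processing experiment and 31 of the input series. Per the labels the authors aligned reads to mm10 with STAR (version 2.52 in the processing notes) and counted them per gene with featureCounts, and the study's methods add upper-quartile normalization with EDASeq. Both deposited tables hold TPM, scaled to transcript length and to a fixed total. TPM keeps no depth, so no counting error could be given. Genes of the table held 54.2% to 99.99% of the fixed total in libraries of the input series. No column was left unused.

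Deposited TPM were taken to a log2 scale after a pseudocount of 1, which understates the change of low genes. A gene was kept when 3 or more libraries of its table reached 1 TPM (12159 and 12323, the latter also above 0 in the libraries fitted). Limma (version 3.58.1, R 4.3.3) was fitted with a mean-variance trend, in 1 fit of 4 conditions and 1 fit of pools of 10, pools of 100 and bulk RNA, with two-sided tests, Benjamini-Hochberg adjustment over all genes and a threshold of 0.05. The fits were tested on simulated data. Single cells and values across tables were described with no test (Python 3.11.15; pandas 2.3.3, scipy 1.17.1 and numpy 2.4.6). Groups and replicate numbers came from the sample titles. Coordinates and lengths come from GENCODE, promoter sequences from RefSeq (GRCm38.p6), and lengths were matched for 96.4% of genes tested.

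An allele of the mouse model is not reported here. The members and gene lists were chosen with earlier results of these data known. Named genes are all members, the 2 genes of lowest adjusted p of each list in each comparison with a call in that list, and the 3 genes of highest rho with Cdh1 and with Epcam. Genes named in the side-by-side values, Fn1, Cdh2 and Elf3 were chosen after their values were seen. Alternatives were another pseudocount, no or a stricter filter, rescaling, quantile normalization, no trend, array weights, single cells added, the replicate number as a block, removal of length and GC trends, other detection limits, and leaving out libraries.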

Additional observations from a re-analysis of the deposited data

How the results depend on the processing

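In the processing experiment 0 members passed under every alternative run, the replicate block and each library left out included, and all 162 recomputed adjusted p-values of members among the 4 conditions stayed above 0.05. Same-numbered libraries deviated together weakly there (median r 0.0693, lowest -0.0422, highest 0.229), beside a median of -0.030 for unlike numbers. For 11 of 12 libraries the mean r was highest with the libraries of their own number. Among pools and bulk RNA of the input series r of same-numbered libraries was between -0.634 and 0.326. Its median was -0.0054, beside 0.0027 for unlike numbers. The main fit did not take the numbers to pair samples, and whether they mark a shared preparation was not tested. With the block 61 of all genes in place of 13 passed among the 4 conditions.

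Of the 3 members lower in pools than in bulk RNA, the replicate block left 0 for pools of 10 and 0 for pools of 100 (Cdh1 -2.89, adjusted p = 0.0679, and -2.55, adjusted p = 0.134), beside 774 and 0 of all genes, and it turned Cldn3 in pools of 10 to 0.14. Array weights gave 7 and 7 members, beside 76.2% and 68.4% of all genes, and single cells added to the fit 1 and 1, beside 11.7% and 3.42%. Without pools 4 to 6 of 100 the count for pools of 10 was 6, beside 46.1% of all genes. In pools of 100 Epcam then turned to 0.0063, Cldn3 to 0.22, Cldn7 to 0.28 and Dsp to 0.19. There Pkp1 (adjusted p = 0.0681) and Jup (adjusted p = 0.266) missed the threshold, and 7.03% of all genes passed. Without pools 1 to 3 of 100 the counts were 6 and 7, and 5 between pool sizes, beside 45%, 55.7% and 17.7% of all genes. With pools 5 and 12 of 10 left out too, the counts were the same, beside 49.9%, 55.8% and 14.7% of all genes. Without either bulk RNA library they were 2 to 2 for pools of 10 and 0 to 1 for pools of 100.

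Quantile normalization moved the median of all genes from -0.86 to 0.13 in pools of 10 and from -0.79 to 0.05 in pools of 100, and the share of higher genes among those called from 18.9% to 54.8% and from 22.7% to 54.7%. With it Epcam turned to -0.15 and Cldn7 to -0.145 in pools of 10, and Dsp to 0.64 in pools of 10 and 0.91 in pools of 100. Removal of length and GC trends gave shares of 7.18% and 13.3%, turned Epcam to -0.12, Cldn7 to -0.35 and Dsp to 0.23 in pools of 10, and Dsp to 0.40 in pools of 100. In single cells 53 of 70 member values were at 1 TPM or more without cells 1 to 4. The causes of these shifts were not tested. Of the recomputed member differences 260 kept direction and side of the threshold, 28 newly passed it, 19 no longer passed it and 13 turned. The study gives mean read depths for the input series, but the depth of each library is not kept in TPM. The 2 bulk RNA libraries set the precision of the comparisons with pools.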
